A study of Mus musculus with 1 sample.

Results

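Elastic fibre and fibulin genes were described in the cells of the mouse pancreas at 2 weeks of age. The 10 genes were found by their symbols in the deposited gene list, which holds 32285 genes, and all 10 were present: *Eln*, *Fbn1*, *Fbn2*, *Mfap4*, *Mfap5*, *Fbln1*, *Fbln2*, *Fbln5*, *Ltbp2* and *Ltbp4*. The study asked how loss of SCAP, the scaffolding protein that escorts SREBP transcription factors to their activation, affects the pancreas. The cells described here came from *Scap* f/f mice, in which *Scap* is floxed but no Cre is present, so that the gene is intact. Pancreata of several mice, males and females in equal number, were pooled, dissociated with collagenase and made into 1 droplet library that counts the 3′ ends of transcripts. With 1 library of pooled animals, no value here has a replicate, differences between mice cannot be seen, and every interval covers counting error only.

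Elastic fibres let tissues stretch and recoil. Their core is crosslinked elastin, which is laid down on a scaffold of microfibrils built from fibrillins. Glycoproteins associated with microfibrils, fibulins and latent TGFβ binding proteins guide the assembly, and smooth muscle cells of vessel walls, fibroblasts and mesothelial cells are known producers.

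The table held 51540177 transcript molecules, counted by their molecular identifiers (UMIs), in 11789 barcodes, of which 10947 cells with 49202966 UMIs were kept, with a median of 2650 UMIs per cell. The 10 genes gave 191250 of these UMIs, or 0.389%. Cells were sorted into classes by marker genes that include none of the 10, and class names are written as X-like because they rest on these markers alone. The gates gave 5685 fibroblast-like, 93 smooth muscle-like, 44 pericyte-like, 478 mesothelial-like and 198 endothelial-like cells, beside 38 cells that passed both mural gates and 139 that passed the endothelial and pericyte gates. *Myh11* stood at 2902 UMIs per 1000000 UMIs of the class (CPM) in smooth muscle-like cells and at 2.77 in fibroblast-like cells, while *Upk3b* stood at 1229 CPM in mesothelial-like cells and at 8.56 in fibroblast-like cells. Within the fibroblast-like cells, 1123 carried the *Pi16* and *Pcolce2* list, 551 had *Rspo3* or *Cxcl14* and 531 had *Meox2*, while 3290 passed no subset gate. Many cells lay near these limits: of 667 cells that passed the *Meox2* gate 449 had just the 1 UMI it asks for, and of 703 that passed the *Rspo3* gate 378 had just the 2 UMIs.

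The 10 genes did not share 1 place in the tissue. Over 12 classes, *Eln* and *Ltbp2* were highest in smooth muscle-like cells, *Fbn1* and *Mfap5* in *Pi16* fibroblast-like cells, *Mfap4* and *Fbln5* in *Meox2* fibroblast-like cells, *Fbn2* in *Rspo3* fibroblast-like cells, *Fbln1* and *Fbln2* in mesothelial-like cells and *Ltbp4* in endothelial-like cells. For *Fbn2* and *Ltbp2* the interval at the top overlapped that of the next class. The 12 classes leave out cells that passed the endothelial and pericyte gates, where *Ltbp4* stood at 1139 CPM against 1052 in endothelial-like cells. The fibroblast clusters described below are not ranked here either. In 1 of them *Fbln1* stood at 605 CPM, against 573 in mesothelial-like cells. CPM here compares 1 gene between classes. A 3′ count takes each transcript once whatever its length, but capture differs between genes, so that no order between genes is read from it.

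**Figure D1:**
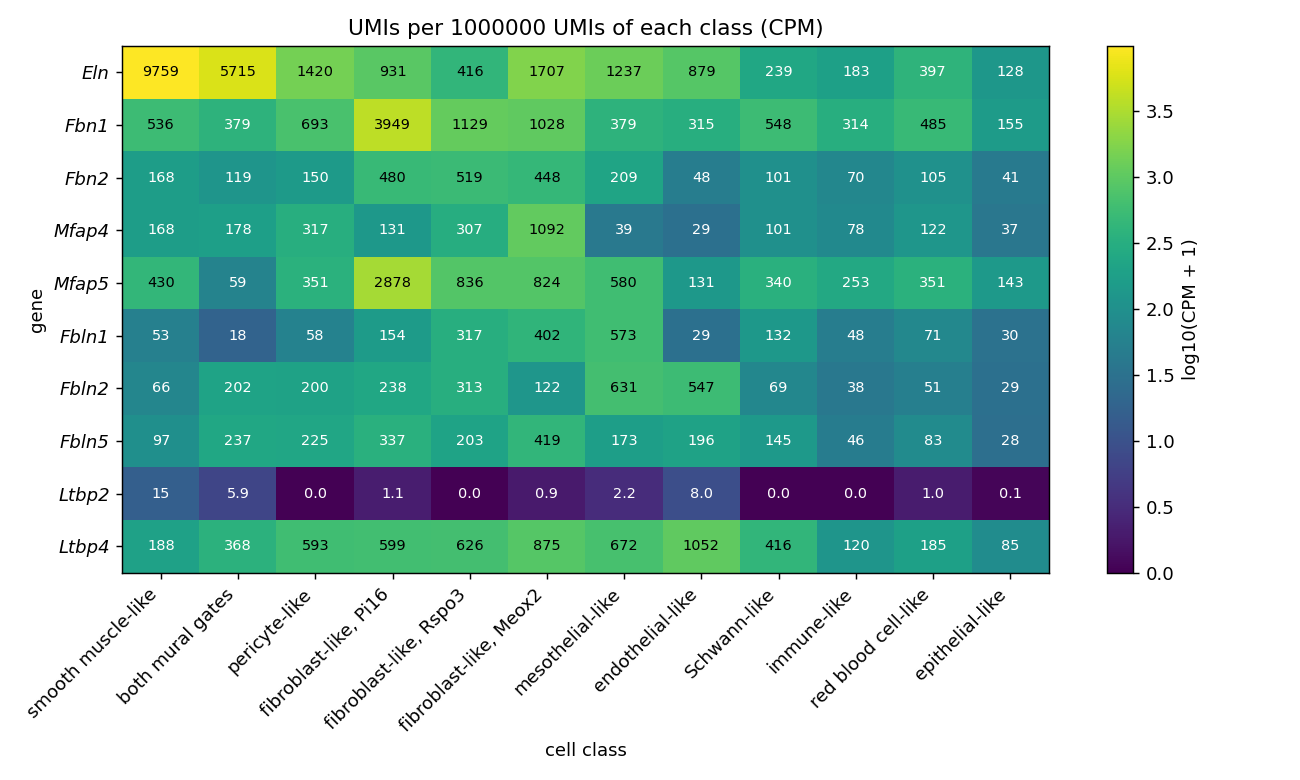
Level of each of the 10 genes (rows) in 12 cell classes (columns), as UMIs per 1000000 UMIs of the class. The number in each box is the CPM and the colour its log10 after adding 1. *Eln* reached 9759 CPM in smooth muscle-like cells and *Fbn1* reached 3949 CPM in *Pi16* fibroblast-like cells.

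*Eln*, which encodes tropoelastin, the soluble precursor of elastin, lies on chromosome 5 at 134702593 to 134747323 of GRCm38, on the reverse strand. It stood at 9759 CPM (9453 to 10073, exact 95% Poisson interval) in smooth muscle-like cells and at 5715 CPM (5360 to 6087) in cells passing both mural gates. Pericyte-like cells had 1420 CPM (1214 to 1650), mesothelial-like cells 1237 (1196 to 1280), endothelial-like cells 879 (827 to 932) and fibroblast-like cells 1286 (1270 to 1302). Among these gated classes the mural cells with smooth muscle markers thus stood apart, while the intervals of pericyte-like and fibroblast-like cells overlapped. The fibroblast-like class is not uniform, and 1 fibroblast cluster described below stood at 6034 CPM. Fibroblast-like cells were 51.9% of kept cells and held 62.2% of all *Eln* UMIs. Smooth muscle-like cells were 0.850% of kept cells and held 9.51%. They were also the class in which *Eln* was found most often, in 89.2% of cells at a median depth of 2637 UMIs. Of the 93 cells, 11 held 53.3% of the *Eln* UMIs of the class, and the median cell had 10. The Poisson interval does not cover this spread among cells.

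The fibrillins build the microfibril scaffold. *Fbn1*, on chromosome 2 at 125300594 to 125507993 (reverse strand), had 1954 CPM (1935 to 1974) in fibroblast-like cells, 693 (552 to 859) in pericyte-like, 536 (466 to 614) in smooth muscle-like, 379 (356 to 402) in mesothelial-like and 315 (285 to 348) in endothelial-like cells. *Fbn2*, the fibrillin best known from fetal and early postnatal tissue, had 485 CPM (475 to 495) in fibroblast-like cells, 209 (192 to 227) in mesothelial-like, 168 (130 to 213) in smooth muscle-like and 48.1 (36.7 to 61.9) in endothelial-like cells. Both were thus genes of fibroblast-like cells. Across the gated subsets *Fbn2* was the most even of the 9 with enough UMIs. It stood at 480, 519 and 448 CPM in the *Pi16*, *Rspo3* and *Meox2* subsets. This did not hold for the clusters described below. *Fbn2* stood at 328 CPM (307 to 351) in the *Eln*-rich cluster and at 741 CPM (709 to 774) in a second *Meox2* cluster.

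The microfibril-associated glycoproteins went different ways. *Mfap5*, whose product binds fibrillins, lies on chromosome 6 at 122505845 to 122529290 (forward strand). It had 1478 CPM (1461 to 1495) in fibroblast-like cells, 580 (551 to 609) in mesothelial-like, 430 (367 to 499) in smooth muscle-like and 131 (111 to 152) in endothelial-like cells. *Mfap4*, whose product binds tropoelastin and fibrillins, lies on chromosome 11 at 61485431 to 61488900 (forward strand). It had 524 CPM (514 to 535) in fibroblast-like cells, 317 (225 to 436) in pericyte-like and 168 (130 to 213) in smooth muscle-like cells, and 39.5 (32.4 to 47.6) in mesothelial-like and 28.9 (20.2 to 40.0) in endothelial-like cells.

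The fibulins spread over more classes. *Fbln1*, on chromosome 15 at 85205949 to 85286535 (forward strand), makes a protein found in elastic fibres and basement membranes. It had 573 CPM (545 to 602) in mesothelial-like, 289 (282 to 297) in fibroblast-like, 53.4 (33.0 to 81.6) in smooth muscle-like and 28.9 (20.2 to 40.0) in endothelial-like cells. *Fbln2*, on chromosome 6 at 91212455 to 91272540 (forward strand), encodes a fibulin of basement membranes and vessel walls. It had 631 CPM (602 to 662) in mesothelial-like and 547 (506 to 589) in endothelial-like cells, against 240 (233 to 247) in fibroblast-like and 66.1 (43.2 to 96.8) in smooth muscle-like cells. Mesothelial-like and endothelial-like cells, the linings of the peritoneum and of vessels, therefore shared a high *Fbln2* level, with a ratio of 1.15 (1.06 to 1.26). Their *Fbln1* levels differed by 19.8-fold (14.3 to 28.4). The endothelial-like *Fbln1* level lay below the 47.9 CPM of immune-like and the 71.0 CPM of red blood cell-like cells. In cells that failed the fibroblast gate, it stood at 14.2 CPM in endothelial-like, 13.2 in immune-like and 10.1 in red blood cell-like cells. The part of free RNA in the 19.8-fold difference was not tested. *Fbln5*, whose product joins elastin to cells and is required for elastic fibre assembly, had 313 CPM (305 to 320) in fibroblast-like cells, 225 (149 to 328) in pericyte-like, 196 (172 to 222) in endothelial-like, 173 (158 to 189) in mesothelial-like and 96.6 (68.3 to 133) in smooth muscle-like cells.

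The latent TGFβ binding proteins followed. *Ltbp4*, whose product binds latent TGFβ and fibulins, had 1052 CPM (996 to 1111) in endothelial-like cells and 1139 (1082 to 1198) in cells that passed both the endothelial and the pericyte gates. It had 689 CPM (678 to 701) in fibroblast-like, 672 (642 to 703) in mesothelial-like and 188 (148 to 236) in smooth muscle-like cells. *Ltbp2*, whose product binds fibrillins but not latent TGFβ, gave 65 UMIs in all kept cells. Of these, 33 lay in fibroblast-like cells, 10 in endothelial-like, 6 in mesothelial-like and 6 in smooth muscle-like cells, or 1.69, 8.02, 2.17 and 15.2 CPM. At this depth its order among the stromal classes rests on few transcripts.

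Smooth muscle-like cells were compared with fibroblast-like cells to ask how the elastin core and its scaffold divide between the mural and the fibroblast compartment. *Eln* was 7.59-fold higher in smooth muscle-like cells (7.33 to 7.85, conditional binomial interval of the counts). *Ltbp2* was 9.01-fold higher (3.09 to 21.8), from 6 UMIs in smooth muscle-like cells. The other 8 genes were all at least 2-fold lower. *Fbn1* was 3.64-fold lower (3.18 to 4.19), *Mfap5* 3.44-fold (2.96 to 4.03) and *Fbln1* 5.42-fold (3.54 to 8.77). The smooth muscle-like *Fbln1* level was under the 71.0 CPM of red blood cell-like cells, and *Ltbp4*, at 188 CPM, near their 185 CPM. *Fbn1*, at 536 CPM, stood near their 485 CPM, and *Mfap5*, at 430 CPM, near their 351 CPM. For all of the 8 genes but *Fbn2*, the smooth muscle-like interval overlapped that of red blood cell-like cells. Of the 473 barcodes of that class, 81 passed the fibroblast gate. In the 392 that failed it, *Fbn1* stood at 57.9 CPM, *Mfap5* at 43.4, *Ltbp4* at 18.8 and *Fbln1* at 10.1. In smooth muscle-like cells that failed it, *Ltbp4* stood at 99.9 CPM and *Fbln1* at 7.40. Subtractions of free RNA were run as alternatives, described at the end. Beyond these, the part of free RNA in these folds was not tested. Of the 13868 genes with 20 or more UMIs in the 2 classes together, 15.2% were higher and 12.5% lower by 2-fold or more, against 2 and 8 of the 10 members. The median log2 ratio was -1.74 over the members and 0.00 over all genes tested. Of the 93 smooth muscle-like cells, 26 also passed the fibroblast gate. The 67 that did not had 8293 CPM of *Eln*, 215 of *Fbn1*, 59.2 of *Mfap5* and 37.0 of *Mfap4*, against 12980, 1243, 1243 and 455 in the 26. The split between *Eln* and the scaffold genes was thus wider without the cells that carried fibroblast markers.

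Against endothelial-like cells, whose gate does not separate kinds of vessel, smooth muscle-like cells had 11.1-fold more *Eln* (10.4 to 11.9). They had 8.27-fold less *Fbln2* (5.60 to 12.8) and 5.60-fold less *Ltbp4* (4.43 to 7.17). For both of these genes the smooth muscle-like interval overlapped that of red blood cell-like cells. In cells that failed the fibroblast gate, *Fbln2* stood at 25.9 CPM in smooth muscle-like and 7.23 in red blood cell-like cells. *Ltbp4* stood at 99.9 and 18.8 CPM there. The part of free RNA was not tested. Pericyte-like cells, the mural cells of small vessels, had 6.88-fold less *Eln* than smooth muscle-like cells (5.89 to 8.06), and their level was close to that of fibroblast-like cells, at a ratio of 1.10 (0.943 to 1.28). Of the 44 pericyte-like cells, 16 (36.4%) also passed the fibroblast gate, and the fibroblast list summed to 19439 CPM in the class. Scrublet marked 13.6% of the 44 cells as doublets. The part of either kind of cell in these values was not tested.

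Mesothelial-like cells, which cover the organ, were compared with fibroblast-like cells in the same way. *Fbln2* was 2.63-fold higher (2.49 to 2.78) and *Fbln1* 1.98-fold higher (1.87 to 2.09). *Mfap4* was 13.3-fold lower (11.0 to 16.2), *Fbn1* 5.16-fold lower (4.86 to 5.50), *Mfap5* 2.55-fold lower (2.42 to 2.68) and *Fbn2* 2.32-fold lower (2.13 to 2.53). The other members lay within 2-fold, *Fbln5* at a ratio of 0.554 (0.504 to 0.608), *Ltbp4* at 0.975 (0.928 to 1.02), *Eln* at 0.962 (0.928 to 0.997) and *Ltbp2*, with 6 UMIs in mesothelial-like cells, at 1.28. Summed over cells, mesothelial-like cells thus had *Eln* and *Ltbp4* levels near those of fibroblast-like cells. They had more of the fibulins *Fbln1* and *Fbln2* and less of the fibrillins. For *Eln* the likeness lay in the sums and not in the share of cells. With cells thinned to equal depth, *Eln* was found in 50.6% of mesothelial-like and 32.7% of fibroblast-like cells. For *Ltbp4* these shares were 38.5% and 43.4%. In the fibroblast-like class, 0.668% of cells held 37.1% of its *Eln* UMIs. Of the 478 mesothelial-like cells 468 (97.9%) also passed the fibroblast gate, and the fibroblast list summed to 30477 CPM in them, and the comparison was not made on the few without. The mesothelial-like *Mfap4* level lay below the 77.7 CPM of immune-like cells, and the *Fbn1* level below the 485 CPM of red blood cell-like cells. In cells that failed the fibroblast gate, *Mfap4* stood at 10.1 CPM in immune-like and *Fbn1* at 57.9 CPM in red blood cell-like cells. Beyond the subtractions described at the end, the part of free RNA in these folds was not tested. Of the mesothelial-like cells, 8.37% were marked as doublets, against 1.30% of fibroblast-like cells. With them removed, the log2 ratio was 1.00 for *Fbln1*, past the 2-fold limit, -4.40 for *Mfap4* and -2.60 for *Fbn1*, against 0.98, -3.73 and -2.37 with them. Across 14283 genes tested, 14.2% were higher and 12.2% lower by 2-fold or more, against 1 and 4 of the 10 members. *Fbln1* lay just under that limit, at a log2 ratio of 0.98.

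**Figure D2:**
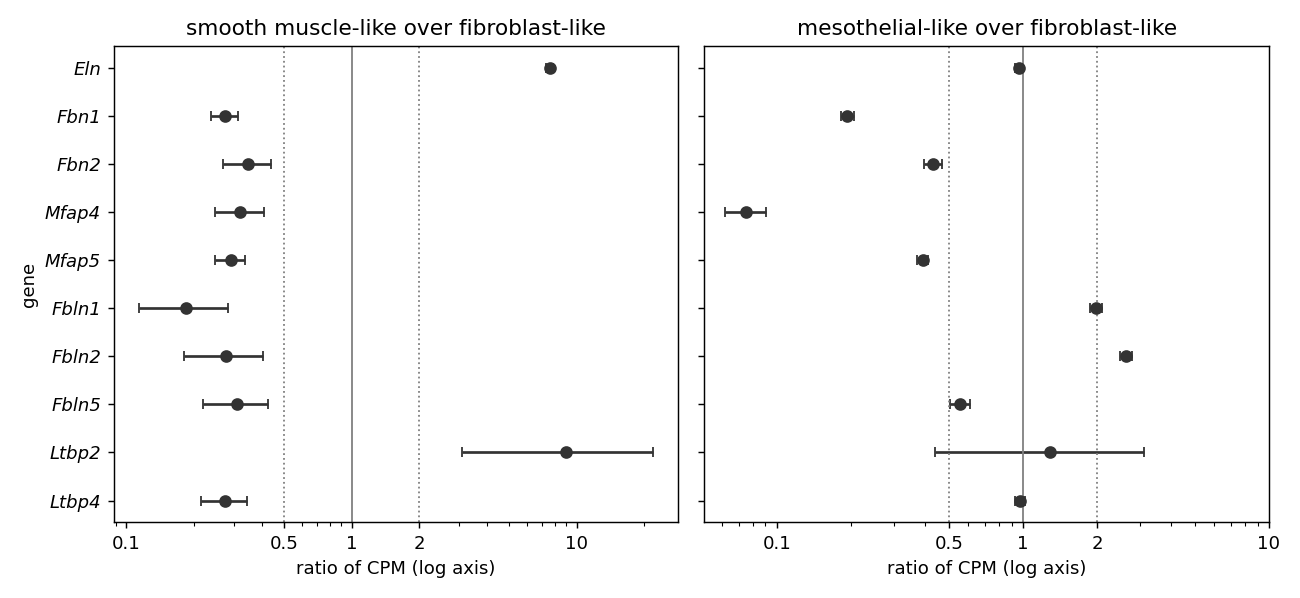
Ratio of CPM between smooth muscle-like and fibroblast-like cells (left) and between mesothelial-like and fibroblast-like cells (right) for the 10 genes, on a log axis, with 95% conditional binomial intervals and dotted lines at 0.5 and 2. *Eln* and *Ltbp2* lie to the right of 2 on the left, and *Fbln2* on the right, where *Fbln1* lies at 1.98.

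A further 23 genes, of the elastic fibre but including the TGFβ ligands, were counted in the same comparisons. They were chosen with earlier results of these data known. Of 22 with enough UMIs, 4 were at least 2-fold higher and 11 lower in smooth muscle-like than in fibroblast-like cells, beside 15.2% and 12.5% of all genes, so that the share of higher genes was near that of all genes. The 4 were *Tgfb1*, *Tgfb2* and *Tgfb3*, the TGFβ ligands, and *Ltbp1*, which binds them in latent form, with *Tgfb3* at 196 against 42.2 CPM and *Tgfb2* at 391 against 91.2 CPM. The lower genes included *Mfap2*, a second glycoprotein that binds fibrillins, at 125 against 559 CPM, and *Efemp1*, a fibulin, at 35.6 against 328 CPM. In mesothelial-like cells 3 of 22 were at least 2-fold higher, again near the 14.2% of all genes, and 10 lower, beside 12.2%. *Ltbp3* stood at 171 against 54.9 CPM and *Adamts17* at 147 against 34.0 CPM, while *Hmcn1*, a very large relative of the fibulins, stood at 39.1 against 472 CPM and *Emilin1*, a glycoprotein of elastic fibres, at 18.8 against 82.3 CPM. *Loxl1*, an enzyme that crosslinks elastin, was lower in smooth muscle-like cells, at 211 against 541 CPM.

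Within the fibroblast-like cells the levels of several of the genes differed between the subsets. In *Pi16* cells *Fbn1* stood at 3949 CPM (3892 to 4006) and *Mfap5* at 2878 (2830 to 2927). In *Rspo3* cells they stood at 1129 and 836, and in *Meox2* cells at 1028 and 824. Both genes were thus well above the other subsets in *Pi16* cells, 3.65-fold (3.54 to 3.77) and 3.47-fold (3.35 to 3.60) against the other gated cells together. *Mfap4* ran the other way, at 131 CPM (121 to 142) in *Pi16*, 307 (285 to 330) in *Rspo3* and 1092 (1049 to 1137) in *Meox2* cells. *Fbln1* had the same order, at 154, 317 and 402 CPM. *Pi16* cells had 5.20-fold less *Mfap4* (4.77 to 5.67) and 2.32-fold less *Fbln1* (2.12 to 2.53) than the other gated cells. Of 12263 genes tested, 4.47% were higher and 9.62% lower by 2-fold or more in *Pi16* cells, against 2 and 2 of the 9 members tested. *Ltbp2* had under 20 UMIs in these subsets and was not counted.

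*Meox2* cells had 1707 CPM of *Eln* (1653 to 1762), against 931 in *Pi16* and 416 in *Rspo3* cells. Against the other gated cells, *Eln* was 2.25-fold higher (2.16 to 2.35) and *Mfap4* 5.73-fold higher (5.35 to 6.13), while *Fbln1* at 1.92-fold (1.76 to 2.09), *Ltbp4* at 1.44-fold (1.36 to 1.52) and *Fbln5* at 1.43-fold (1.33 to 1.55) lay under 2-fold. *Fbn1* was 2.91-fold lower (2.79 to 3.04), *Mfap5* 2.66-fold lower (2.53 to 2.79) and *Fbln2* 2.16-fold lower (1.90 to 2.47). Of the 3 subsets, *Meox2* cells thus had the most *Eln*, *Mfap4*, *Fbln1*, *Fbln5* and *Ltbp4* and the least *Fbn1* and *Fbln2*. Fibroblast-like cells that passed no subset gate had 1672 CPM of *Eln* (1646 to 1699), close to the *Meox2* subset. This likeness lay in the sums. With cells thinned to equal depth, *Eln* was found in 34.0% of the former and 51.0% of the latter. Across all genes tested 5.93% were higher and 5.56% lower by 2-fold or more, against 2 and 3 of the 9 members. *Mfap4* is in the name given to this subset with earlier results of these data known, though not in its gate. Its high level there is thus a description only, and the count of 2 includes it.

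*Rspo3* cells had the least *Eln* and *Fbln5* of the subsets. *Eln* was 2.83-fold lower (2.65 to 3.03) than in the other gated cells, *Fbn1* 2.67-fold (2.57 to 2.78) and *Mfap5* 2.66-fold (2.54 to 2.79), and *Fbln2* was 1.56-fold higher (1.43 to 1.71). The highest *Rspo3* cell held 313 of the 996 *Eln* UMIs of the subset. The highest *Pi16* cell, in the reference, held 467 of 4369. The interval for *Eln* does not cover this spread among cells. No member was 2-fold higher and 3 of 9 were 2-fold lower, against 4.35% and 4.57% of all genes. The subset comparisons share cells, since each subset is part of the reference of the others, and are not independent of each other.

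**Figure D3:**
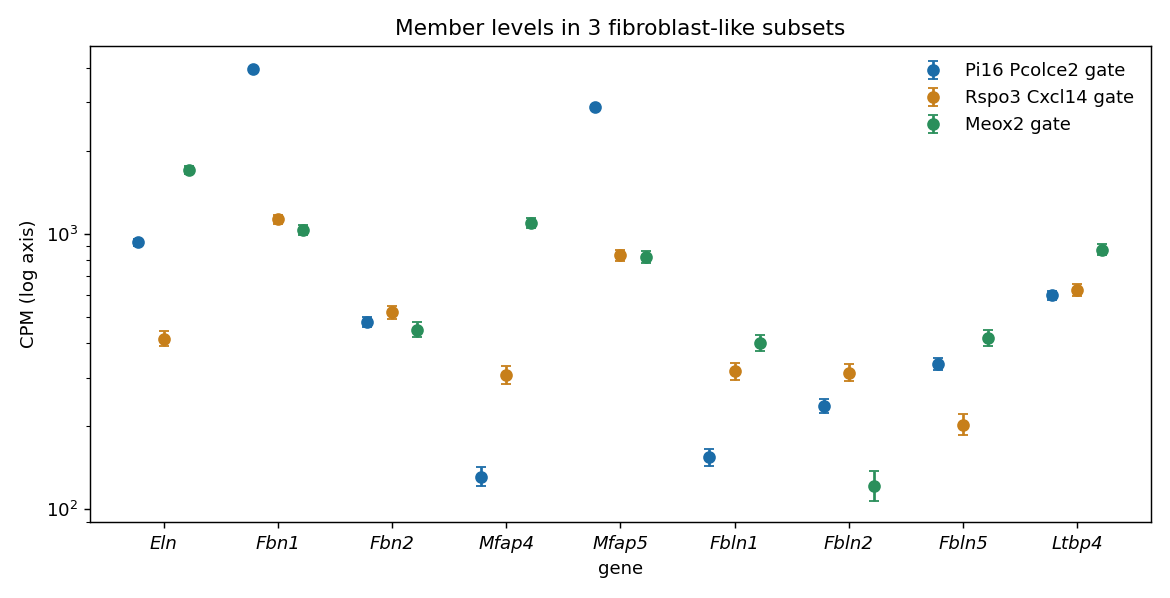
CPM of 9 of the genes in fibroblast-like cells gated by *Pi16* and *Pcolce2* markers, by *Rspo3* and *Cxcl14*, and by *Meox2*, on a log axis, with exact 95% Poisson intervals. *Fbn1* and *Mfap5* are highest in the *Pi16* subset at 3949 and 2878 CPM, and *Eln* and *Mfap4* in the *Meox2* subset at 1707 and 1092 CPM.

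The further genes were counted in the subsets too. In *Pi16* cells 5 of 21 were at least 2-fold higher and 3 lower than in the other gated cells, beside 4.47% and 9.62% of all genes. *Efemp1* stood at 860 against 77.8 CPM, an 11.0-fold difference (9.91 to 12.3), *Emilin2* at 261 against 72.8 CPM, *Ltbp1* at 217 against 58.0 CPM, *Tgfb2* at 202 against 44.0 CPM and *Adamtsl4* at 134 against 35.1 CPM. *Efemp1*, a fibulin, thus had its highest subset level where *Fbn1* and *Mfap5* had theirs. In *Meox2* cells 2 of 21 were higher and 5 lower, beside 5.93% and 5.56% of all genes, and the former were *Tgfb3*, at 67.0 against 29.1 CPM, and *Tgfb1*, at 13.2 against 6.49 CPM. In *Rspo3* cells 1 was higher, *Adamts17* at 79.4 against 10.6 CPM, and 5 were lower, beside 4.35% and 4.57% of all genes. The higher counts in *Meox2* and *Rspo3* cells are thus 1 or 2 genes, near the share of all genes. *Mfap2*, *Loxl1*, *Vcan* and *Hmcn1* stood within 2-fold of the reference in each of the 3 subset comparisons.

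*Eln* was spread over fibroblast-like cells very unevenly. With each cell thinned to 800 UMIs, the 10% of cells with the most *Eln* held 71.0% of its UMIs, and its variance over cells was 11.7 times its mean. The same ratio was 1.97 for *Fbn1*, 1.72 for *Mfap5*, 1.99 for *Mfap4* and 1.16 for *Ltbp4*. The share in the top 10% also depends on how sparse a gene is, and for *Fbln2*, with fewer UMIs and a ratio of 1.13, it was 71.8%. Without thinning, 2295 fibroblast-like cells (40.4%) had no *Eln* UMI, 3001 had 1 to 9, 351 had 10 to 99 and 38 had 100 or more. Those 38 cells, 0.668% of the class, held 37.1% of its *Eln* UMIs, and the highest had 653. In 1 fibroblast-like cell *Eln* made up 8.15% of all UMIs. Among smooth muscle-like cells 10 had no *Eln* UMI and 11 had 100 or more, and those 11 held 53.3% of the *Eln* UMIs of their class.

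Clustering of the kept cells without the 10 genes, which gave 26 clusters with 7 of them fibroblast-like, put the *Eln*-rich cells together. The cluster with the most *Eln*, picked for that level and so given as a description only, had 744 cells, of which 731 (98.3%) were fibroblast-like by gate. Its *Eln* level was 6034 CPM, against 997 in the fibroblast cluster with the next highest level and 552 in the other fibroblast clusters together. It held 36 of the 38 fibroblast-like cells with 100 or more *Eln* UMIs, and 39.5% of all *Eln* UMIs in the library in 6.80% of kept cells. The median cell of the cluster had 1681 CPM of *Eln* and the median cell of the other fibroblast clusters 213. *Mfap4* stood at 1645 against 352 CPM, *Fbln1* at 605 against 240, *Fbln5* at 553 against 276 and *Ltbp4* at 943 against 653. *Fbn1* stood lower, at 1044 against 2130 CPM, as did *Fbn2*, at 328 against 515, *Mfap5*, at 1065 against 1559, and *Efemp1*, at 31.8 against 380 CPM.

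Besides the 10 genes the cluster was led by *Fmo2*, *Abcc9*, *Tgfbi*, *Ccn2*, *Mgp*, *Cdc42ep3*, *Fry*, *Prlr*, *Gria4* and *Ntrk3*. *Mgp*, an inhibitor of calcification, reached 2998 against 580 CPM, and *Meox2* stood at 168 CPM, the highest of the 7. Markers of mural cells were low there beside the mural classes, and some were higher in another fibroblast cluster. The smooth muscle list of 6 genes summed to 180 CPM there, to 80.0 CPM in the other fibroblast clusters and to 18266 CPM in smooth muscle-like cells, and all 6 genes had a UMI, with *Tagln* at 81.8 against 24.6 CPM. In the cluster of 949 cells *Acta2* stood at 147 CPM, against 75.8 in the *Eln*-rich cluster, and *Rgs5* at 67.8 against 31.1 CPM. The pericyte list, which includes *Abcc9*, summed to 389, 105 and 6187 CPM in the cluster, the other fibroblast clusters and pericyte-like cells. *Pdgfra*, a fibroblast marker, stood at 335 against 418 CPM, and 0.403% of the cells were marked as doublets. The part of mural cells or their RNA in the *Eln* level of the cluster was not tested. A second *Meox2* cluster of 949 cells had 835 CPM of *Eln* and 1037 of *Mfap4*, so that *Mfap4* was high in both and *Eln* far above the rest in 1 of them. With clusters in place of gates, the log2 ratio of *Eln* between *Meox2* and the other named subsets was 2.91, against 1.17 with gates.

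**Figure D4:**
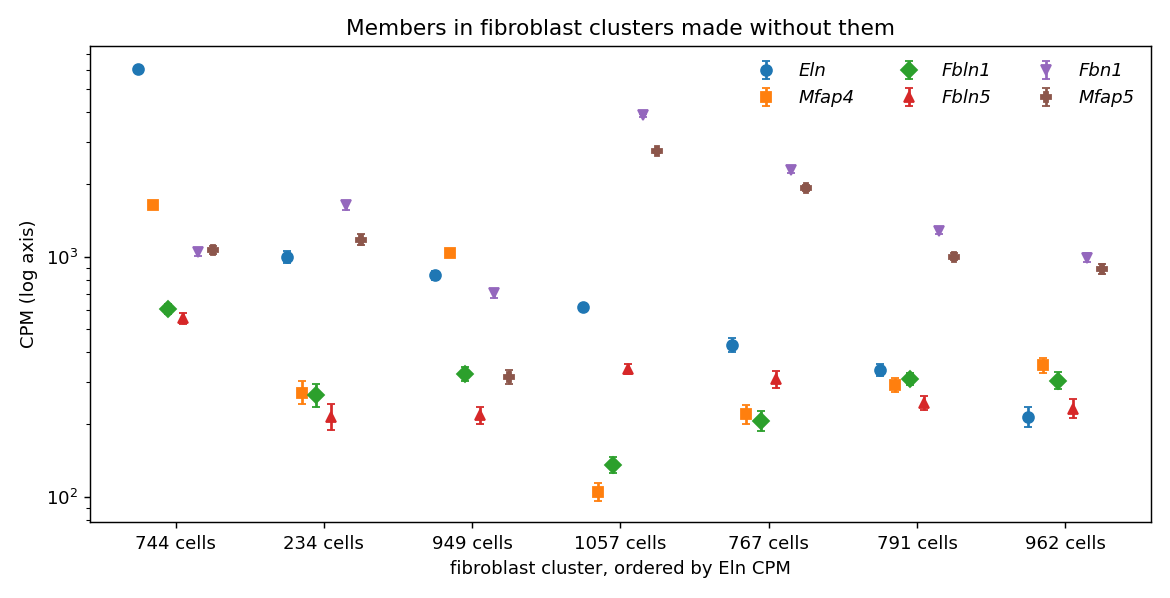
CPM of 6 of the genes in the 7 fibroblast clusters, which were made without the 10 genes, on a log axis with exact 95% Poisson intervals and clusters ordered by *Eln*. The cluster of 744 cells stands at 6034 CPM of *Eln* and the next at 997, while *Fbn1* and *Mfap5* are highest in the cluster of 1057 cells.

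Detection of pairs of genes in single cells was compared with the product of their shares. In fibroblast-like cells thinned to 800 UMIs, *Eln* was found in 1858 of 5685 cells and *Mfap4* in 1581, and 819 had both, which is 1.59 times the product of their shares. *Mfap4* was seen in 44.1% of cells with *Eln* and in 19.9% of cells without it. The ratio was 1.44 for *Mfap4* with *Fbln1*, 1.32 for *Eln* with *Fbln1*, 1.23 for *Mfap4* with *Fbln5* and 1.22 for *Eln* with *Fbln5*. *Fbln5* was also above 1 with *Mfap5*, at 1.09, and with *Fbn1*, at 1.07, and stood at 1.09 with *Fbln1*, so that it did not go with 1 side alone. *Fbn1* and *Mfap5* were found together 1.16 times as often as that product, and *Mfap4* with *Mfap5* 0.770 times and with *Fbn1* 0.814 times. *Fbn2* lay between 0.953 and 1.02 with each of the others apart from *Ltbp2*. Cells of 1 library share its free RNA, and these shares are a description without a test.

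**Figure D5:**
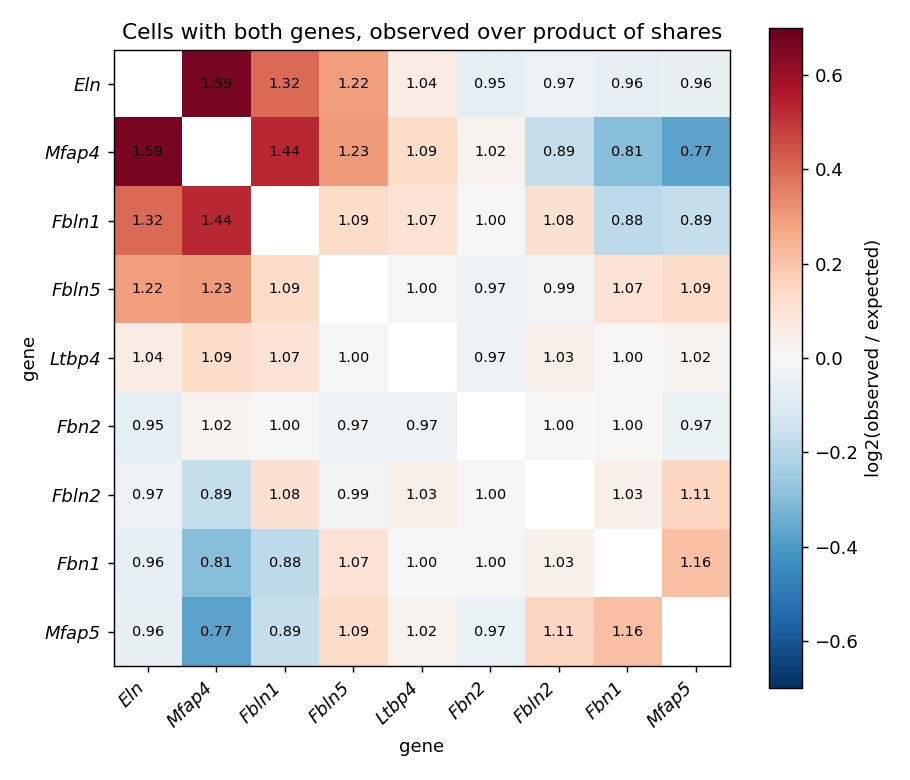
Fibroblast-like cells, thinned to 800 UMIs, in which both genes of a pair had a UMI, divided by the number that the product of their shares gives, for 9 genes. The colour is the log2 of that quotient. *Eln*, *Mfap4*, *Fbln1* and *Fbln5* are above 1 with each other, and *Mfap4* lies at 0.77 with *Mfap5* and at 0.81 with *Fbn1*.

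*Ltbp2* was found in 26 fibroblast-like cells, and 25 of these had an *Eln* UMI, with a median of 20.5 against 1 in fibroblast-like cells without *Ltbp2*. Of the 26 cells, 14 were in the *Eln*-rich cluster, which held 30.8% of all *Ltbp2* UMIs. Cells with *Ltbp2* were also deeper, at a median of 5066.5 against 2667 UMIs in all fibroblast-like cells, and the part of depth in this overlap was not tested. Cycling fibroblast-like cells, 220 in number, had 263 CPM of *Mfap4* against 543 in the others, a 2.06-fold lower level (1.85 to 2.30). Their *Eln* level was 937 against 1311 CPM and their *Fbln2* level 241 against 240 CPM.

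Free RNA in the droplets sets a floor under these values, and its size depends on the barcodes it is read from. In 392 red blood cell-like barcodes that failed the fibroblast gate, which should lack all 10 genes, *Eln* had 0.0918 UMIs per barcode and was found in 8.42% of them at a median of 1441 UMIs, against 4.41 per barcode and 59.6% of fibroblast-like cells at a median of 2667. For *Fbn1* the counts were 0.102 and 6.71 per barcode, for *Mfap5* 0.0765 and 5.07, and for *Mfap4* 0.0153 and 1.80. Over all 473 red blood cell-like barcodes, 81 of which passed the fibroblast gate, *Eln* had 0.839 UMIs per barcode, was found in 15.9% and stood at 397 CPM, a level that overlaps the 416 CPM of *Rspo3* fibroblast-like cells. Epithelial-like barcodes that failed the gate had 1.31 *Eln* UMIs each at a median of 6343 UMIs. Immune-like barcodes that failed the fibroblast gate had 0.127 *Eln* UMIs each. The 167 endothelial-like cells that failed it, at a median of 3324 UMIs, had 5.52 *Eln*, 3.41 *Fbln2* and 6.46 *Ltbp4* UMIs per barcode, while their *Mfap4* stood at 0.0599 and their *Fbln1* at 0.0898. The low levels of the 10 genes in immune-like and epithelial-like cells were not read as expression. Some stromal levels were as low, among them *Fbln1* in endothelial-like and *Mfap4* in mesothelial-like cells. The part of free RNA in them was not tested.

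For each gene, the genes most like it in level across the 12 classes were sought by the Pearson correlation of log2(CPM + 10), as a description. *Eln* was most like *Fhl1* (r = 0.94), *Pcnx4* and *Lamb2*. *Fbn2* was most like the collagen VI genes *Col6a2* (r = 0.99) and *Col6a1* and the crosslinking enzyme gene *Loxl1*. *Fbn1* was most like *Ugdh* (r = 0.95), *Mfap5* like *Arhgap20* (r = 0.97), *Mfap4* like *Lsamp* (r = 0.97) and *Fbln1* like *Cpxm1* (r = 0.96). *Fbln5* was most like *Mmp14* (r = 0.95), *Fbln2* like *Arhgap29* (r = 0.92) and *Ltbp4* like *Sptbn1* (r = 0.93). *Ltbp2* had too few UMIs.

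Promoter sequences were held for 6 of the 10 genes in the RefSeq table. *Fbln1*, *Fbln5* and *Ltbp4* have an entry whose window of 250 bases before the start lies outside annotated exons. The first pair is shown because these genes stood 2.52-fold and 2.01-fold higher in the *Eln*-rich cluster, against 1.44-fold for *Ltbp4*. Capitals mark GGGCGG (GC box) and CCAAT on either strand, and TATAAA and TGACTCA were also sought. In the GENCODE M21 annotation the *Fbln5* gene ends at 101819055, short of the start used here. The bases just after either RefSeq start of *Fbln5* were not found in an annotated transcript of the gene. The build is GRCm38.p6, with *Fbln1* on the forward strand at chr15:85205699-85205948 and *Fbln5* on the reverse strand at chr12:101819120-101819369.
Fbln1: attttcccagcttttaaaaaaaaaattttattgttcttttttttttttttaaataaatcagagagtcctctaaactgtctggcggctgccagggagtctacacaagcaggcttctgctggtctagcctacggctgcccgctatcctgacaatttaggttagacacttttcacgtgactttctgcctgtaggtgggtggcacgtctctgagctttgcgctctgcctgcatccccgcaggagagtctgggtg
Fbln5: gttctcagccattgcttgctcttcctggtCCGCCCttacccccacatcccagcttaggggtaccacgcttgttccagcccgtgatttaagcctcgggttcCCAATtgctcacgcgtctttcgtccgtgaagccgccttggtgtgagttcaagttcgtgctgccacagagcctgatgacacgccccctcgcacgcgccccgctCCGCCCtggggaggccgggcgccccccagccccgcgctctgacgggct

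The *Fbln5* window held 2 GC boxes and 1 CCAAT and 65.2% G and C, and the *Fbln1* window held none of the 4 motifs and 46.4% G and C. Each gene has a second listed start, whose window overlaps an exon and is not shown. There *Fbln1* had 1 GC box and 62.4% G and C, and *Fbln5* none of the motifs and 49.6%, so that the windows differ as much between starts of 1 gene as between the genes. Among 32851 windows of the same length before all listed starts, 32.7% held a GC box, 33.8% CCAAT, 12.4% TATAAA and 4.46% TGACTCA, and the median G and C content was 52.4%. A match describes the letters of the window and no match says nothing of the factors.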

How the data were processed

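The data are 1 droplet library of 3′ single-cell RNA sequencing from *Scap* f/f pancreata. The authors aligned the reads to mm10 with Cell Ranger 7.1.0, per the labels, and deposited raw UMI counts, which were not normalized. A barcode was kept if its total lay above 800 and below 100000 UMIs, with less than 15% from mitochondrial genes. The study's own upper limit was 10000 UMIs, which 818 kept cells reach, and it was run as an alternative. The removal of ambient RNA in the study's methods was not repeated. A cell passed a class gate by the number of different markers and their share of its UMIs, for example 3 markers and 1% for the 6 fibroblast markers. Fibroblast-like cells passed no other gate, and cells passing several other gates were left out, except the 2 mixed classes named. UMIs of a gene were summed per class and scaled to 1000000 UMIs (CPM), with exact 95% Poisson intervals for levels and conditional binomial intervals for ratios. A count of 0 was set at 3 counts. A gene was counted as higher or lower at 2-fold or more, with 20 or more UMIs in both groups together. With 1 library there is no test. The functions were tested on simulated data. The named genes are the 10 members, genes from a fixed list of 23 further genes, and the 3 genes most like each member among those with 200 or more UMIs. Members and lists were chosen with earlier results of these data known. Clusters came from scanpy 1.11.5 with 2000 variable genes other than the members, 30 components, 20 neighbours and resolution 1. Doublets were scored with Scrublet and kept. Python 3.11.15, numpy 2.4.6, scipy 1.17.1, pandas 2.3.3 and matplotlib 3.10.9 were used. Coordinates are from GENCODE M21 (GRCm38, the assembly of mm10), whose identifiers of the 10 genes matched those of the table. The alternatives were 10 planned and 4 added after the data were seen. A planned one subtracted the CPM of all red blood cell-like barcodes. An added one subtracted the mean UMIs per barcode of those that failed the fibroblast gate, haemoglobin genes apart.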

Additional observations from a re-analysis of the deposited data

Results flagged for a closer look

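The 10 genes also gave UMIs in barcodes that the comparisons left out. In the 752 barcodes at or under 800 UMIs they summed to 1621 CPM, in the 14 barcodes at or over 100000 UMIs to 331 CPM, and in the 76 barcodes over the mitochondrial limit but within the UMI limits to 2183 CPM, against 3887 CPM in kept cells. Each lies above the limit that a count of 0 allows, which is 6.07, 1.74 and 26.1 CPM in that order. *Eln* alone had 465, 61.9 and 565 CPM in these barcodes and 820 CPM in kept cells.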

How the results depend on the processing

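No paired analysis was possible because there is 1 library. Of 47 log2 ratios between classes, 27 were past 2-fold. All 27 kept their sign under the 14 alternatives that could give a value, and 24 stayed past 2-fold in each, the exceptions being *Fbln2* in the *Meox2* subset, *Mfap5* in the *Rspo3* subset and *Mfap5* in mesothelial-like cells, whose smallest log2 ratios were -0.90, -0.83 and -0.97. The count of members higher by 2-fold or more in mesothelial-like cells was 2 instead of 1 with some alternatives. These are given with the share of all genes that were higher. They were a lower limit of 1500 UMIs (14.1%), stricter gates (14.0%), clusters in place of gates (14.9%), Scrublet doublets removed (14.7%) and the red blood cell level subtracted (19.6%). The count moved since *Fbln1* lies at the limit (log2 ratio 0.87 to 1.20 over the alternatives) and since *Ltbp2* passed it with clusters. In smooth muscle-like cells the higher count was 1 instead of 2 with the red blood cell level subtracted and with cells thinned to 800 UMIs, where *Ltbp2* had under 20 UMIs. With clusters in place of gates, 4 members instead of 2 were lower in the *Pi16* subset and 4 instead of 2 were higher in the *Meox2* subset. The shares of all genes with clusters were 9.82% and 7.38%. The remaining 115 counts stayed within 1.5 times. Of the log2 ratios under the alternatives, 174 lay outside the 95% counting interval of the reported value and 403 within it. The largest moves came with the red blood cell level subtracted, where *Fbn1* in mesothelial-like cells went from -2.37 to -10.40 and *Ltbp4* in smooth muscle-like cells from -1.87 to -7.33. Under the other alternatives these lay between -2.60 and -2.14 and between -2.79 and -1.54. The subtracted *Fbn1* level, 485 CPM, exceeded the 379 CPM of mesothelial-like cells, so that -10.40 rests on the 3 counts set for a count of 0. For *Ltbp4* the subtraction took 185 of 188 CPM. The subtracted levels were those of all red blood cell-like barcodes. In those that failed the fibroblast gate *Fbn1* stood at 57.9 and *Ltbp4* at 18.8 CPM. *Eln* in the *Pi16* subset, at a log2 ratio of -0.15 against the other gated cells, ranged from -1.60 to 0.37 and its direction is not given. The log2 ratio of *Eln* in smooth muscle-like cells ranged from 2.42 to 3.40. In the *Rspo3* subset it was -1.50, and -5.34 with the red blood cell level subtracted, which takes away nearly all of the 416 CPM there. The cause of the changes with clusters was not tested.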
